A study of Mus musculus with 51 samples.

Results

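The transcription factors that mark granulosa cells and the wider supporting-cell lineage of the gonad were followed in mouse XY gonads with altered Dmrt1. They were the 10 genes Foxl2, Foxl2os, Runx1, Runx2, Irx3, Irx5, Gata4, Gata6, Gata1 and Wt1, each found by its gene name as 1 row of a count table of 55401 genes. The table held messenger RNA counts of 30 libraries, 3 in each of 10 groups, with 5043838 to 12792811 counts a library (median 8776697). At postnatal day 28 (P28) the groups were whole gonads from Dmrt1 wild types (+/+), heterozygotes (+/-), nulls (-/-) and R111G/+ animals, and at P3 they came from heterozygotes, nulls, R111G/- and R111G/+ animals. At P7 the groups were Sertoli cells purified from animals with Dhh-Cre and a Cre-dependent CAG tdTomato reporter, Dmrt1 f/f in the mutants and Dmrt1 f/+ in the controls. The control cells thus also carried Cre and 1 floxed allele, although their titles call them +/+. Dhh-Cre acts in Dhh-expressing cells, which in the testis are Sertoli cells, and tubules of 2 mice were pooled for each P7 purification. All animals were of mixed 129Sv and C57Bl/6J background. The R111G line, which carries a missense change in the DNA-binding domain, came from 1 founder, and the +/- gonads used as controls at P3 and P28 carried 1 null allele. The labels do not say whether libraries of a group came from separate animals, so p-values measure the spread between these libraries, which may be technical in part.

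DMRT1 is a DNA-binding protein that keeps the Sertoli cells of the postnatal testis male, and when it is lost these cells acquire features of granulosa cells, their counterpart in the ovary. Sertoli and granulosa cells arise from one precursor that already makes GATA4, GATA6 and WT1, whereas FOXL2 is made in the ovarian branch and keeps adult granulosa cells from turning into Sertoli-like cells. RUNX1 acts beside FOXL2 in fetal granulosa cells, RUNX2 is best known from bone and is induced in granulosa cells at ovulation, and IRX3 and IRX5 are homeobox factors that act together in the fetal ovary, where granulosa cells and germ cells meet. GATA1 is the regulator of red cell, mast cell and megakaryocyte development and is also made by Sertoli cells of the maturing testis.

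The sequences behind 2 features of these genes were taken from RefSeq on build GRCm38.p6, in which 6 of the 10 genes had a window of 250 bases before to 50 bases after a start, 7 windows in all. Foxl2 lies on chromosome 9 from 98955288 to 98958543 on the plus strand, and Foxl2os, a non-coding transcript, from 98949781 to 98955299 on the minus strand, so the annotated bodies overlapped by 12 bases head to head. The stretch around their starts is shown because the windows of both genes share most of it. The RefSeq start of Foxl2 lies inside the body given by GENCODE, and all 250 bases shown are transcribed in that annotation. The 250 bases before the RefSeq start of Foxl2, chr9:98955357-98955606 on the plus strand, hold in capitals the 204 bases that the Foxl2os window also contains.
Foxl2: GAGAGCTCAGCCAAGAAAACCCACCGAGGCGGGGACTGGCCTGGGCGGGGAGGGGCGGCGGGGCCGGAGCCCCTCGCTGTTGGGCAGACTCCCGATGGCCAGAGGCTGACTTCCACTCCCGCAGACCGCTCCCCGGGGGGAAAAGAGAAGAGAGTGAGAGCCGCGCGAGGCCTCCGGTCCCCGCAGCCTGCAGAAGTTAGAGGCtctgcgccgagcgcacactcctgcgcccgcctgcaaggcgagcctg
The RefSeq starts of Foxl2 and Foxl2os were 297 bases apart. Their windows had a GC content of 71.3% and 71.7% and 27 and 28 CpG dinucleotides, against a median of 52.7% and 7 over 32851 windows of the same length. The second feature joins Runx1 and Runx2. Just after the RefSeq starts of the longer Runx1 transcript and of Runx2 stood nearly the same 30 bases. For Runx1 they lie at chr16:92826030-92826059 on the minus strand, 15 to 44 bases downstream of the start base. For Runx2 they lie at chr17:44814588-44814617 on the minus strand, 10 to 39 bases downstream of it. The RUNX motif is in capitals, here read from its other strand.
Runx1: gacctcataaacaACCACAgaACCACAagt
Runx2: cgcctcacaaacaACCACAgaACCACAagt
The last 22 of these 30 bases were identical and occurred in 2 of the 32851 windows, those of Runx1 and Runx2. The RUNX motif was searched as TGTGGT on both strands and was present at least once in 16.8% of all windows and in 2 or more copies in 1.8%. Runx2 had a further copy 80 bases before its start, and the second Runx1 start, about which a chromatin contact is described later, had none. The other motifs were searched on both strands too. AGATAA for the GATA factors (in 11.2% of windows), ACATTGT for the core of the DMRT1 site (3.0%), GTAAACA for forkhead factors (3.6%) and ACANNTGT for Iroquois factors (7.4%) were not found in the 7 windows, and ACAAT for SOX factors (31.0%) was found in that of Runx2 alone. These letter matches describe the windows only.

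The targeted gene was low in the -/- gonads and the mutant P7 cells. Dmrt1 stood at 0.178 to 0.479 CPM (counts scaled to a common library size by the trimmed mean of M values, TMM) in P28 Dmrt1 -/- gonads against 28.2 to 71.6 CPM in the other P28 groups, at 2.20 to 3.40 CPM in P3 Dmrt1 -/- gonads against 55.2 to 151 CPM in the other P3 groups, and at 21.4 to 37.1 CPM in mutant against 172 to 269 CPM in control P7 cells. The loss of 1 copy did not show in CPM at P28. Dmrt1 stood at 28.2 to 58.3 CPM in +/- testes, the highest in library 3, and at 33.0 to 41.8 CPM in +/+ testes. Beside Wt1 counts of 996, 613 and 1364, Dmrt1 had 414, 278 and 700 counts in +/- libraries 1 to 3. In +/+ libraries Dmrt1 had 321, 337 and 287 counts beside 525, 474 and 513 of Wt1, and this ratio was not tested. The Sertoli marker sum was 5893 to 7082 CPM in control P7 cells, where macrophage markers summed to 6.51 to 9.92 CPM, and 3149 to 3893 CPM in mutant P7 cells. P28 +/- library 3 stood apart from its group, with a germ cell marker sum of 4522 CPM against 12736 and 16871 CPM in libraries 1 and 2. Whole gonads differed in make-up: the 16 germ cell markers summed to 12949 to 16094 CPM in P28 +/+, 242 to 343 CPM in P28 -/- and 1566 to 1733 CPM in P28 R111G/+ gonads. Against +/+ testes the median log2 change of these markers was -8.62 in -/- and -0.80 in R111G/+ gonads. In R111G/+ gonads the sum thus fell by more than the median marker. In such bulk samples, fewer cells of a type and less RNA per cell cannot be told apart.

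Loss of Dmrt1 by P28 was compared with the wild type first, with edgeR's quasi-likelihood F test over 20952 genes. Calls needed both a change over 2-fold and a p under 0.05 after Benjamini-Hochberg adjustment. Of the 10 factors, 5 were called higher in Dmrt1 -/- gonads (Foxl2, Foxl2os, Irx3, Gata4 and Gata6) and 2 lower (Irx5 and Runx2). Among all genes tested, 26.1% were called higher and 40.5% lower, 66.6% in all, so that 7 of 10 called was close to the share of any 10 genes, and the interest lies in which factor moved and how far. The median log2 change of all genes was -0.31 in this comparison.

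Foxl2 had 6, 2 and 2 counts (0.616, 0.248 and 0.252 CPM) in the 3 Dmrt1 +/+ testes. In the 3 Dmrt1 -/- gonads it had 1113, 1603 and 2295 counts (133, 177 and 204 CPM). Every -/- library lay far above every other P28 library, since the +/- testes had 0.682, 0.101 and 0.5 CPM and the R111G/+ gonads 0.0948, 0.344 and 0.375 CPM. The log2 fold change of Foxl2 against +/+ was 8.56 (SE 0.41, adjusted p = 3.14e-09), which placed it at rank 8 of the genes tested. From the summed counts, the level was 450.4 times that of +/+ testes, with a 95% exact interval of 244.7 to 939.8 that covers counting error only. Foxl2os behaved as its neighbor did, with 85.2, 100.2 and 154 CPM in -/- gonads and 0.308, 0.372 and 0.378 CPM in +/+ testes. Its log2 fold change was 8.10 (SE 0.49, adjusted p = 1.08e-08). Both transcripts started from a handful of counts in the testis, so the size of the fold rests on few control reads. In -/- gonads 1.33 to 1.76 Foxl2 counts were seen per Foxl2os count.

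The Iroquois genes moved in opposite directions. Irx3, on chromosome 8 from 91798525 to 91802067, had 0.411, 0.124 and 0.503 CPM in +/+ testes, or 4, 1 and 4 counts, and 7.67, 7.82 and 6.4 CPM in -/- gonads, or 64, 71 and 72 counts. The groups did not overlap, and the log2 fold change was 4.15 (SE 0.43, adjusted p = 1.27e-06). Irx5, which lies 555.6 kb away on the same chromosome from 92357625 to 92376286, had 10.5, 16.7 and 13.7 CPM in +/+ testes and 0.12, 0.11 and 0.533 CPM in -/- gonads. Its lowest +/+ library thus stood above its highest -/- library, and the log2 fold change was -5.77 (SE 0.54, adjusted p = 4.5e-07). Counted together, Irx3 made up 0.735 to 3.77% of Irx3 plus Irx5 counts in +/+ testes, 5.88 to 14.6% in +/- testes, 12 to 22.7% in R111G/+ gonads and 92.3 to 98.6% in -/- gonads. The level of Irx5 moved with the germ cell marker sum between the P28 groups. Within the +/- group it stood at 12.3, 6.70 and 6.33 CPM in libraries 1 to 3, although library 3 had by far the lowest germ cell marker sum. The part of germ cell number in the Irx5 change was not tested.

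**Figure D1:**
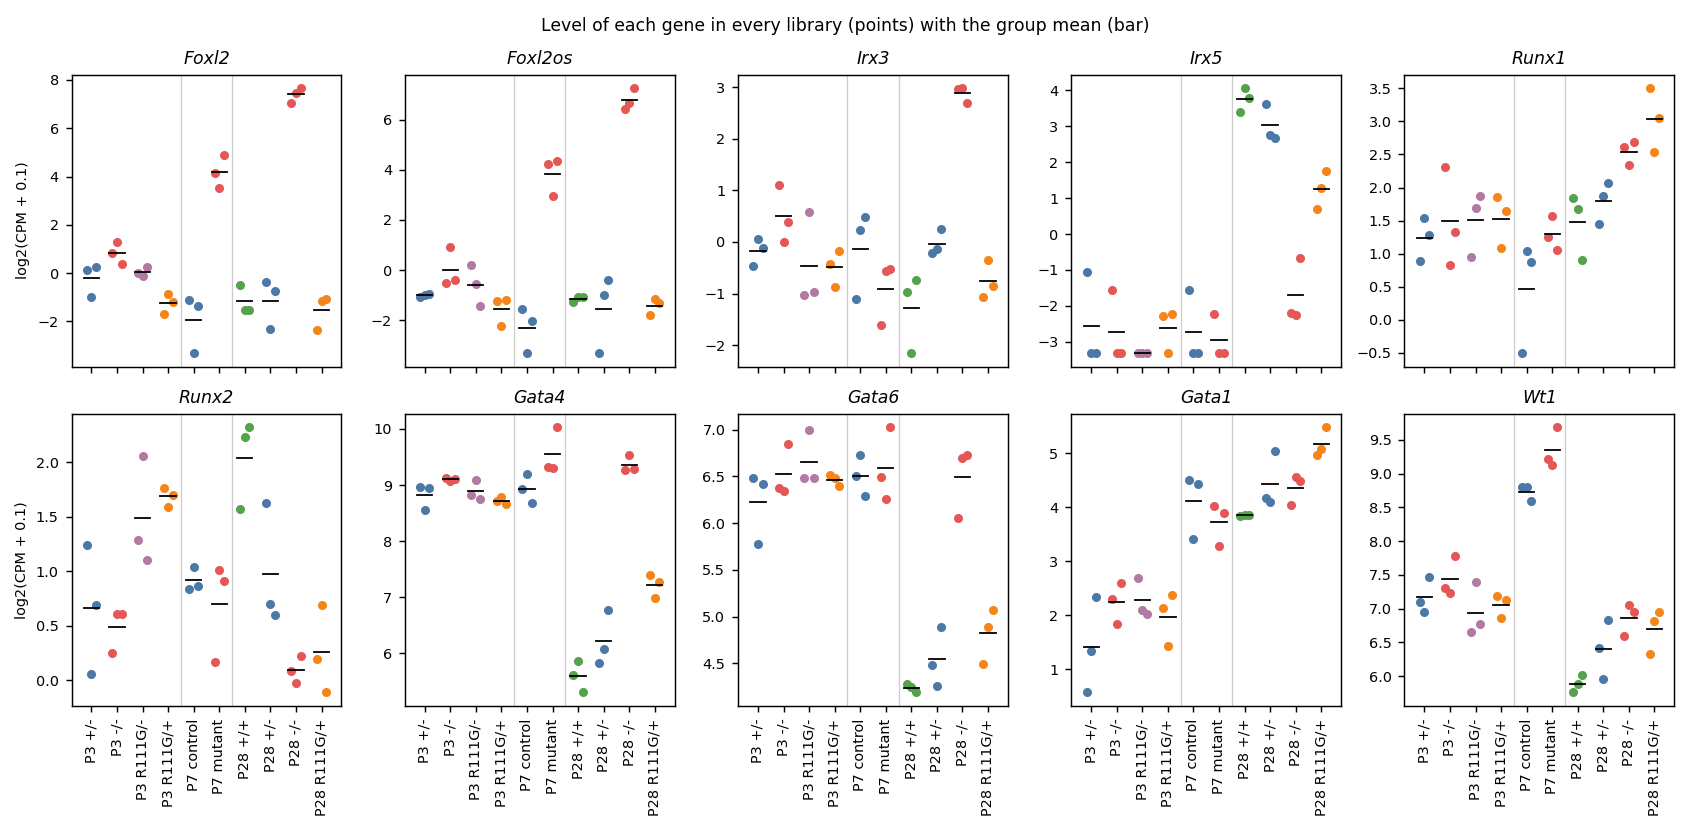
Level of each of the 10 genes in every library, as log2(CPM + 0.1) on the vertical axis, with the 10 groups on the horizontal axis ordered P3, P7 and P28; points are libraries, bars are means of the 3 plotted values, and genotypes are those of Dmrt1. The 3 P28 -/- libraries sit at 133 to 204 CPM for Foxl2, and Irx5 is above 1 CPM in the P28 +/+, +/- and R111G/+ libraries alone.

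GATA4 and GATA6 are zinc finger factors of gonadal somatic cells, and GATA4 is needed for the gonad to form at all. Gata4 had 49.2, 58.3 and 39.4 CPM in +/+ testes and 614, 740.2 and 625 CPM in -/- gonads. Every -/- library was far above the highest +/+ library, with a log2 fold change of 3.55 (SE 0.25, adjusted p = 3.87e-08). Gata6 had 19.3, 18.8 and 18.1 CPM in +/+ testes against 66.5, 104 and 106 CPM in -/- gonads, a log2 fold change of 2.10 (SE 0.23, adjusted p = 1.92e-06) without overlap of the groups. The ratio of Gata4 to Gata6 counts was 2.17 to 3.09 in +/+ testes and 5.90 to 9.23 in -/- gonads. Leydig cell markers, from another somatic cell of the gonad, summed to 1017 to 2484 CPM in +/+, 3715 to 7724 CPM in R111G/+ and 11016 to 12964 CPM in -/- gonads. Of these 8 markers, 3 were called higher and 2 lower in -/- against +/+ gonads (26.1% and 40.5% of all genes), with a median log2 change of 0.50. In R111G/+ against -/- gonads 4 were called higher and 3 lower (27.6% and 10.1% of all genes), so the sum does not stand for the whole list. The part of Leydig cells in the Gata4 and Gata6 levels was not tested. Gata1 had 14.2, 14.4 and 14.5 CPM in +/+ testes and 16.3, 23.5 and 22.4 CPM in -/- gonads. Erythroid markers summed to 45.9 to 87.1 CPM in +/+ and 248 to 420 CPM in -/- libraries, although of 7 tested 4 were called higher and 2 lower. The Gata1 groups did not overlap, yet the log2 fold change of 0.34 (SE 0.26, adjusted p = 0.244) was not called.

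RUNX factors bind DNA together with CBFB. Runx2 had 2.88, 4.59 and 4.91 CPM in +/+ testes and 0.959, 0.881 and 1.07 CPM in -/- gonads. All 3 -/- libraries, with 8 to 12 counts each, lay below the +/+ libraries, and the log2 fold change was -2.26 (SE 0.42, adjusted p = 0.000212). Runx1 had 3.49, 3.10 and 1.76 CPM in +/+ testes and 5.99, 4.96 and 6.31 CPM in -/- gonads. These did not overlap, but the log2 fold change of 0.84 (SE 0.34, adjusted p = 0.0352) was under 2-fold and not called. It reached 1.05 (adjusted p = 0.0289) without +/+ library 1 and 1.16 (adjusted p = 0.00717) with library size alone as the scaling. Wt1, the zinc finger factor that Sertoli and granulosa cells share, had 53.9, 58.8 and 64.6 CPM in +/+ testes and 96.7, 132 and 123 CPM in -/- gonads. It differed by 0.79 on the log2 scale (SE 0.22, adjusted p = 0.00499) without overlap, which was again under 2-fold.

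Where most genes change, the scaling decides the zero point. With DESeq2's size factors the median of all genes was -0.47, with library size alone 0.00664, and with factors drawn from interstitial marker lists (peritubular myoid, stromal, endothelial and macrophage) -2.44. Of calls, 39.2% were higher by TMM, 45.8% by library size alone and 4.04% by the interstitial lists. In those 4 lists 1 of 6, 8 of 8, 8 of 8 and 9 of 10 markers were called higher in -/- gonads by TMM, and 2 myoid markers lower. Foxl2, Foxl2os, Irx3 and Gata4 were higher and Irx5 and Runx2 lower under all 4 scalings. Gata6 was not, with -0.04 (adjusted p = 0.939) by the interstitial lists, and Runx1, Gata1 and Wt1 changed sign by them and were then called lower, at -1.19 (adjusted p = 0.00956), -1.81 (adjusted p = 0.00115) and -1.39 (adjusted p = 0.00967).

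**Figure D2:**
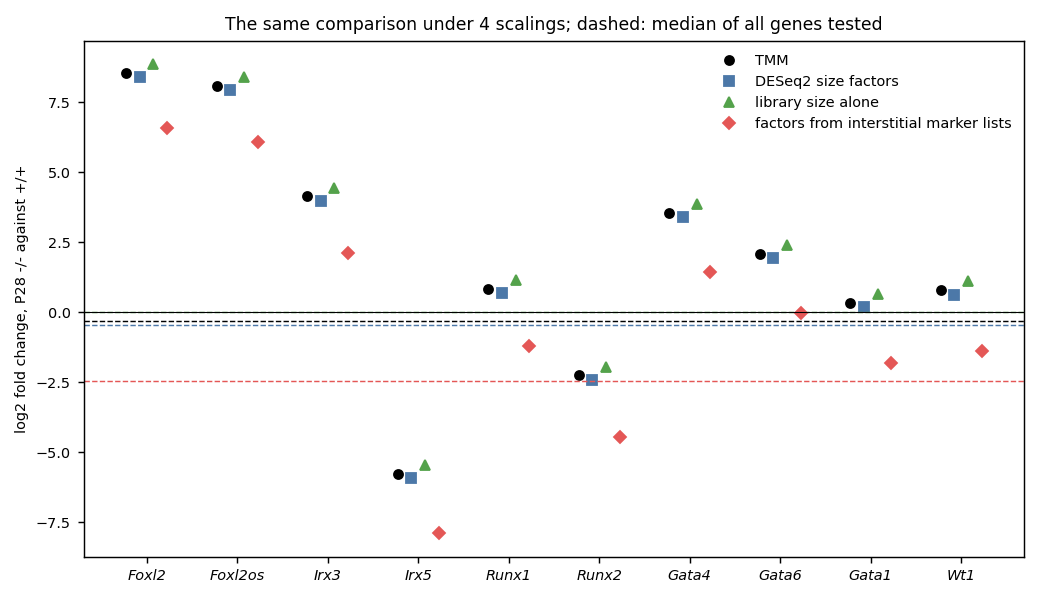
Log2 fold change of the 10 genes between P28 Dmrt1 -/- gonads and +/+ testes (vertical axis) under 4 scalings of the same counts, shown as different symbols, with dashed lines at the median of all 20952 genes under each. Foxl2 is at 8.56 by TMM, and Runx1, Gata6, Gata1 and Wt1 are above 0 by TMM and below 0 with factors from interstitial marker lists.

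A ratio of 2 counts within a library needs no scaling, so the factors were also set against Wt1. The log2 ratio of Gata4 to Wt1 counts was -0.13, -0.01 and -0.71 in +/+ testes and 2.67, 2.48 and 2.35 in -/- gonads, a difference of 2.78. The difference for Gata6 was 1.281, with ratios of -1.48, -1.64 and -1.83 against -0.54, -0.35 and -0.22. For Foxl2 it was 7.73 and for Irx3 3.35, and no -/- library overlapped the +/+ libraries for these 4 genes. For Gata1 the ratio fell by 0.47, from -1.92, -2.03 and -2.15 to -2.57, -2.49 and -2.45. Each of these 5 differences had an exact two-sided permutation p of 0.1, the smallest that 3 against 3 libraries allow, and 0.12 after Benjamini-Hochberg adjustment over the 6 ratios. Runx1 did not move relative to Wt1 beyond its spread, with a difference of 0.10 (exact permutation p = 0.9) that turned negative without +/+ library 3 or -/- library 1. Against Gata4 in place of Wt1, Irx3 differed by 0.56 (exact permutation p = 0.7). Without the logarithm, Gata4 counts per Wt1 count were 0.61 to 0.992 in P28 +/+ and 5.08 to 6.35 in P28 -/- gonads. They were 1.07 to 1.31 in control and 1.08 to 1.27 in mutant P7 cells, and 2.79 to 3.68 in +/- and 2.53 to 3.6 in -/- P3 gonads. Gata6 counts per Wt1 count were 0.203 to 0.238 in control and 0.136 to 0.158 in mutant P7 cells. The P7 and P3 ratios were not tested.

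**Figure D3:**
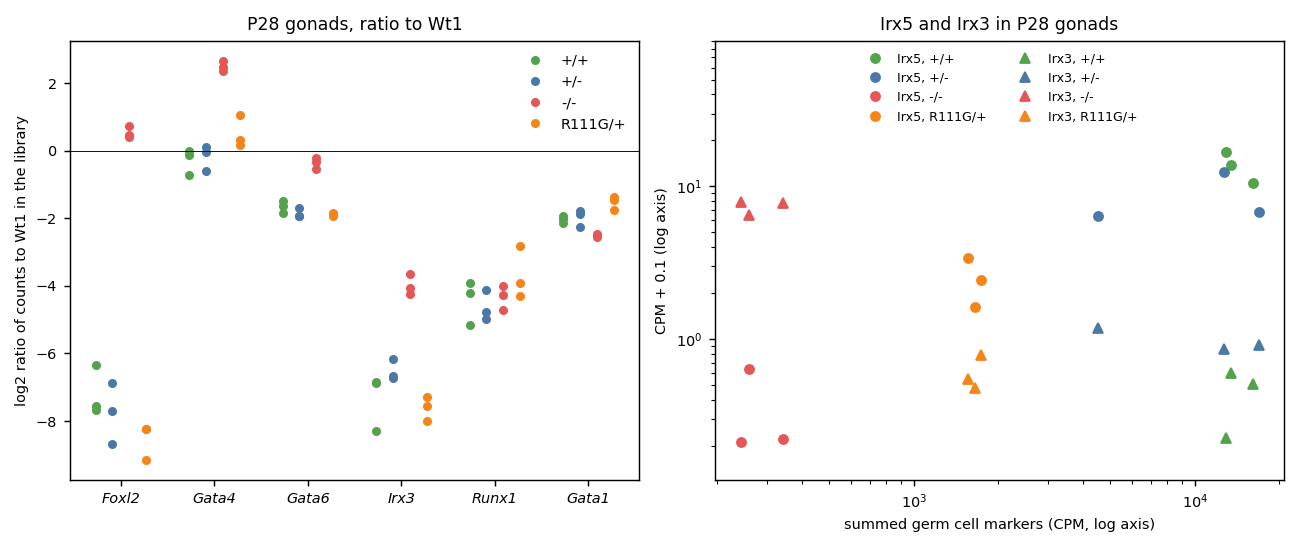
Left, log2 ratio of the counts of 6 genes to Wt1 counts (0.5 added to each) in every P28 library by Dmrt1 genotype. Right, CPM + 0.1 of Irx5 (circles) and Irx3 (triangles) against the summed CPM of 16 germ cell markers on 2 log axes, 1 point a library; the -/- libraries are at 242 to 343 CPM of germ cell markers with Irx5 below Irx3, and in the other P28 libraries Irx5 is above Irx3.

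Heterozygous testes served as the second control. Against them, the same direction was found for the 7 factors called against +/+, and all 7 were called again, 5 higher and 2 lower, where 58.5% of all genes were called, 19.8% higher and 38.7% lower. Foxl2 differed by 8.38 (SE 0.39), Foxl2os by 8.08, Irx3 by 2.84, Gata4 by 2.90 and Gata6 by 1.78 on the log2 scale, and Irx5 by -5.06. The +/- testes had 0.767, 0.812 and 1.08 CPM of Irx3 and 12.3, 6.70 and 6.33 CPM of Irx5. Runx2 is the weakest of the 7 calls. It had 2.98, 1.52 and 1.42 CPM in +/- testes, and its log2 fold change of -1.20 (SE 0.42, adjusted p = 0.0205) was no longer called without +/- library 1 (-0.77, adjusted p = 0.135) or -/- library 2 (-1.13, adjusted p = 0.0592). Runx1 (0.57, adjusted p = 0.132), Gata1 (-0.30, adjusted p = 0.294) and Wt1 (0.25, adjusted p = 0.311) were not called. Under the interstitial scaling Gata6 was at 0.16 (adjusted p = 0.729).

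Loss of 1 copy was compared next. Between Dmrt1 +/- and +/+ testes edgeR called 0 of the 10 factors and 0% of all genes. DESeq2 called 23 genes (0.11%), none of the factors among them. At an unadjusted p under 0.05 by edgeR were 5 factors, beside 3769 of the 20952 genes tested. The 5 were Runx2 (-1.06, adjusted p = 0.221), Irx3 (1.31, adjusted p = 0.226), Gata4 (0.65, adjusted p = 0.22), Gata1 (0.64, adjusted p = 0.242) and Wt1 (0.54, adjusted p = 0.248). Foxl2 (0.18), Foxl2os (0.01), Runx1 (0.27), Irx5 (-0.70) and Gata6 (0.32) had an unadjusted p above that. For Irx3 the +/- libraries, at 8 to 13 counts, all lay above the +/+ libraries, at 1 to 4. Gata4 in +/- library 3, at 109.8 CPM, was well above libraries 1 and 2, at 56.5 and 67.2 CPM, and the same library was the highest of its group for Gata6, Gata1, Wt1 and Runx1. It was also the one with the low germ cell marker sum, and the part of that in these values was not tested.

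The R111G/+ gonads answered whether a single altered allele shifts the same factors by P28. Against +/- testes 1 factor was called higher, Runx1, and 1 lower, Irx5, where 34.8% of all genes were called, 6.72% higher and 28.1% lower. Runx1 had 11.3, 5.70 and 8.17 CPM in R111G/+ gonads and 2.64, 3.55 and 4.08 CPM in +/- testes. The groups did not overlap, and the log2 fold change was 1.20 (SE 0.32, adjusted p = 0.00782), although it shrank to 0.22 (adjusted p = 0.63) under the interstitial scaling. Irx5, at 1.52, 2.34 and 3.30 CPM, was below every +/- library and differed by -1.89 (SE 0.40, adjusted p = 0.00184). Gata4, at 168, 126 and 154 CPM, was above every +/- library and passed the p threshold with a log2 fold change of 0.86 (SE 0.23, adjusted p = 0.00758), under 2-fold, but stood at -0.08 (adjusted p = 0.861) under the interstitial scaling. Without +/- library 3, which had a low germ cell marker sum, 4 factors were called, Gata4 at 1.183 (adjusted p = 0.000414) and Runx2 at -1.08 (adjusted p = 0.0457) in addition. Gata1 was at 0.62 (adjusted p = 0.0523), Runx2 at -0.88 (adjusted p = 0.0838), Irx3 at -0.86 (adjusted p = 0.109), Gata6 at 0.20, Wt1 at 0.21 and Foxl2os at -0.39. Foxl2 differed by -0.70 (SE 0.61, adjusted p = 0.352) on 1 to 8 counts a library, a depth at which only large differences could be seen.

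Beside the Runx1 call, macrophage and mast cell markers were higher in R111G/+ than in +/- gonads, while Gata1 was not called. The macrophage marker sum was 883 to 2269 CPM in R111G/+ gonads, 345 to 555 CPM in +/- testes, 957 to 1243 CPM in -/- gonads and 228 to 431 CPM in +/+ testes. All 10 macrophage markers were called higher in R111G/+ than in +/- gonads. The mast cell and megakaryocyte marker sum was 25.8 to 95.3 CPM in R111G/+ and 11.4 to 17.8 CPM in +/- gonads, and 3 of the 4 markers tested were called higher, Pf4 by 1.41, Tpsb2 by 4.77 and Mcpt4 by 3.45. Of 7 erythroid markers tested in the same comparison, 0 were called higher and 2 lower, where 6.72% and 28.1% of all genes were. Macrophages are known to make RUNX1 and mast cells GATA1, and their part in the Runx1 and Gata1 levels was not tested.

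Against the other genotypes the R111G/+ gonads lay between wild type and null for several factors. Against +/+ testes 3 factors were called higher (18.1% of all genes), namely Runx1 (1.47, adjusted p = 0.00161), Gata4 (1.51, adjusted p = 0.000106) and Gata1 (1.26, adjusted p = 0.000763), and 2 lower (34.1%; 52.2% in either direction), Irx5 (-2.59, adjusted p = 0.000107) and Runx2 (-1.94, adjusted p = 0.000788). Gata1 had 31.3, 33.7 and 44.8 CPM in R111G/+ gonads, above all +/+ libraries. The interstitial scaling left only Irx5 and Runx2 called, with Gata1 at -0.16. Foxl2 (-0.52), Foxl2os (-0.38), Irx3 (0.45), Gata6 (0.51) and Wt1 (0.75, adjusted p = 0.00915, under 2-fold) were not called. Against -/- gonads 37.7% of genes were called. There Irx5 was called higher (3.18, adjusted p = 0.000449, where 27.6% of genes were) and 5 factors lower (10.1%), Foxl2 by -9.07, Foxl2os by -8.47, Irx3 by -3.69, Gata4 by -2.04 and Gata6 by -1.59. The Gata6 call was lost under the interstitial scaling (-0.85, adjusted p = 0.0986). Wt1 differed between these groups by -0.05 (SE 0.22, adjusted p = 0.872) and Gata1 by 0.92 (adjusted p = 0.00803), under 2-fold. Runx1 (0.63) and Runx2 (0.32) were not called. The order of mean Gata4 levels at P28 was 659.6 CPM in -/-, 149.6 in R111G/+, 77.8 in +/- and 48.96 in +/+ gonads, and of these neighbors only the ranges of +/- and +/+ gonads overlapped.

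**Figure D4:**
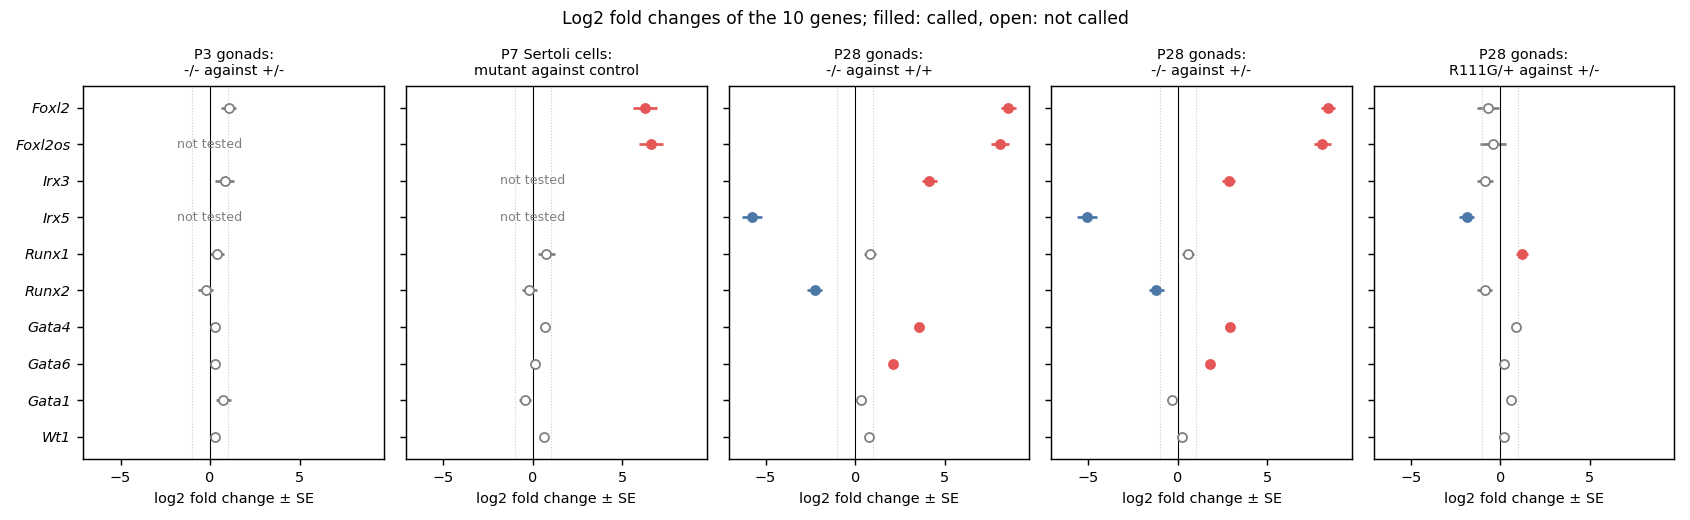
Log2 fold change with its standard error (horizontal axis) of the 10 genes in 5 comparisons, filled where called (adjusted p below 0.05 and over 2-fold), open where not, and marked where a gene did not pass the low-count filter; dotted lines stand at a 2-fold change. At P3 no factor is filled, at P7 Foxl2 and Foxl2os are at 6.28 and 6.62, and at P28 the -/- gonads show 7 filled points against either control.

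The P7 cells asked what changes in Sertoli cells themselves, soon after birth. Foxl2 and Foxl2os were called higher in mutant cells and no factor lower, 2 of the 8 that could be tested, where 4.56% of 14013 genes were called, 2.56% higher and 2% lower. Foxl2 had 155, 59 and 148 counts (17.6, 11.3 and 29.3 CPM) in mutant cells and 3, 0 and 2 counts in controls. The mutant libraries were all above the controls, and the log2 fold change was 6.28 (SE 0.65, adjusted p = 0.00189). From summed counts the mutant level was 79.2 times the control (95% exact interval 33.63 to 245.4, counting error only). Foxl2os had 164, 40 and 103 counts against 2, 0 and 1, a ratio of 111.9 (37.95 to 545.8) and a log2 fold change of 6.62 (SE 0.67, adjusted p = 0.00182). The pair again moved together, library 2 being lowest for both. Beside these changes, endothelial markers summed to 33.1 to 56.7 CPM in mutant and 14.1 to 21.5 CPM in control cells, stromal markers to 130 to 459 and 37.3 to 241 CPM, and granulosa markers to 2414 to 3356 and 2216 to 2762 CPM, and the part of other cells was not tested.

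The other factors of the P7 cells differed by less. Gata4 had 643, 634 and 1049 CPM in mutant and 485, 583 and 412 CPM in control cells, without overlap, and its log2 fold change of 0.68 (SE 0.25) had an adjusted p of 0.168. Wt1 had 596, 558 and 828 CPM against 445, 446 and 385 CPM, also without overlap, at 0.66 (SE 0.20, adjusted p = 0.0989). For both, mutant library 3 was the highest. Over the alternative scalings and fits Gata4 ran from -0.22 to 0.81 and Wt1 from -0.29 to 0.75, so both changed sign. Neither was called in any. Gata6 (0.13, adjusted p = 0.777), Runx1 (0.77, adjusted p = 0.406), Runx2 (-0.19, adjusted p = 0.824) and Gata1 (-0.41, adjusted p = 0.521) had overlapping groups, apart from Runx1, whose mutant libraries at 2.27, 2.87 and 1.98 CPM just cleared the controls at 0.603, 1.96 and 1.72 CPM. Irx3, with 2 to 3 counts in mutant and 3 to 9 in control libraries, and Irx5, with 1 and 2 counts in all, were too low to be tested. Gata1 at 9.57 to 22.7 CPM in these cells stood beside summed mast cell and megakaryocyte markers of 0.362 to 1.87 CPM, with at most 2 of 10 markers detected in a library. Erythroid markers summed to 2.44 to 36.9 CPM there, and the part of blood cells in the Gata1 level was not tested.

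At P3 no factor was called between null and heterozygous gonads. Between Dmrt1 -/- and +/- gonads edgeR called 0 of the 8 factors tested, as did DESeq2, where 0.511% of 15837 genes were called (0.202% higher, 0.309% lower). At an unadjusted p under 0.05 by edgeR were 2 factors, beside 1397 of all genes. Foxl2 was one of these. It had 14, 18 and 11 counts (1.69, 2.32 and 1.21 CPM) in -/- gonads against 8, 3 and 8 (1.01, 0.403 and 1.10 CPM) in +/- gonads. All -/- libraries were higher, and the log2 fold change was 1.05 (SE 0.43, adjusted p = 0.467). The ratio of summed counts was 2.042 with an exact interval of 1.165 to 3.71. Gata4, the other, had 557, 540.2 and 555 CPM against 502, 375 and 494 CPM, a difference of 0.28 on the log2 scale (SE 0.13, adjusted p = 0.559). Irx3 (0.81, adjusted p = 0.776), Gata1 (0.73), Runx1 (0.39), Gata6 (0.30), Wt1 (0.29) and Runx2 (-0.25) were not called. Foxl2os, at 2 to 14 counts in the +/-, -/- and R111G/- libraries, and Irx5, at 0 to 3 counts, did not pass the filter.

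The R111G alleles at P3 left few marks on these genes. Against +/- gonads no factor was called in R111G/+ (0.133% of all genes, 0.0821% higher and 0.0505% lower) or R111G/- gonads (0.196%, 0.0379% higher and 0.158% lower). Nor was one called in R111G/- against -/- (0.177%, 0.12% higher and 0.0568% lower) or R111G/+ against R111G/- gonads (0.461%, 0.354% higher and 0.107% lower). DESeq2 called none of them either. In the same order 2, 1, 2 and 1 of 8 factors were at an unadjusted p under 0.05 by edgeR. Of all 15837 genes, 913, 1069, 1199 and 1820 were. Between R111G/+ and -/- gonads Foxl2 was called, at 2, 4 and 3 counts in R111G/+ against 14, 18 and 11 in -/- libraries, with a log2 fold change of -2.35 (SE 0.48, adjusted p = 0.0162, where 1.89% of genes were called, 0.903% higher and 0.985% lower). The ratio of summed counts was 5.172 in favor of -/- gonads (exact interval 2.487 to 12.07). This call was lost without -/- library 1 (adjusted p = 0.0588) or 2 (0.0763) and without R111G/+ library 1 (0.0928) or 3 (0.0865), although the direction was the same in each. Runx2 had 3.30, 2.92 and 3.15 CPM in R111G/+ gonads, 2.35, 4.07 and 2.05 CPM in R111G/- and 1.09, 1.42 and 1.43 CPM in -/- gonads. Its libraries with R111G lay above all null libraries, at 1.22 (adjusted p = 0.102) and 1.09 (adjusted p = 0.487) on the log2 scale, neither of which was called. The other factors tested lay between -0.34 and 0.45 on the log2 scale for R111G/+ and between -0.20 and 0.73 for R111G/- against +/-, apart from Foxl2 (-1.30 and 0.15) and Runx2 (0.98 and 0.84). Irx3 was at -1.15 (adjusted p = 0.314) in R111G/+ and -0.89 (adjusted p = 0.721) in R111G/- against -/-, Foxl2 at -0.89 in the latter, and the rest between -0.49 and 0.12. Between R111G/+ and R111G/- gonads Foxl2 was at -1.46 (adjusted p = 0.284) and the rest between -0.28 and 0.13. The 2-group fit of R111G/+ against -/- gave Runx2 an adjusted p of 0.0462.

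Age was compared within each genotype in a fit of all 30 libraries over 21696 genes. In +/- gonads Irx5 (6.04) and Gata1 (3.14) were called higher at P28 than at P3 and Gata4 (-2.37) and Gata6 (-1.51) lower, 4 of 10 where 54.7% of genes were called, 35.7% higher and 18.9% lower. Foxl2 (-0.72), Foxl2os (0.03), Runx1 (0.75), Runx2 (0.51), Irx3 (0.34) and Wt1 (-0.56, adjusted p = 0.0285, under 2-fold) were not called. Irx5 was almost silent at P3, with 3, 0 and 0 counts against 144, 66 and 76 at P28, a ratio of 64.28 (exact interval 21.77 to 313.5). Gata1 had 1.38, 2.42 and 4.96 CPM at P3 and 17.8, 17.1 and 32.8 CPM at P28. Beside this, the erythroid marker sum of +/- gonads was 629.7 to 3040 CPM at P3 and 38.0 to 102 CPM at P28. The part of red cells in the Gata1 level was not tested. Under the interstitial scaling Gata4 was at -0.69 (adjusted p = 0.135) and Gata6 at 0.18, so the fall of these 2 genes was not called there, while stromal markers of +/- gonads summed to 8297 to 11430 CPM at P3 and 781 to 1180 CPM at P28.

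In -/- gonads the course was another. Foxl2 (6.61), Foxl2os (6.79), Irx3 (2.37) and Gata1 (2.11) were called higher at P28 and no factor lower, where 23% of genes were called, 10.9% higher and 12.1% lower. Gata4 (0.25, adjusted p = 0.39) and Gata6 (-0.03, adjusted p = 0.989) stood at P28 near their P3 levels, and Irx5, with 2, 0 and 0 counts at P3 and 1, 1 and 6 at P28, gave a ratio of 3.505 with an exact interval of 0.6995 to 33.88. Runx1 (0.94), Runx2 (-0.44) and Wt1 (-0.59, adjusted p = 0.0412, under 2-fold) were not called. In R111G/+ gonads Runx1 (1.61), Irx5 (4.85) and Gata1 (3.27) were called higher and Runx2 (-1.38), Gata4 (-1.42) and Gata6 (-1.55) lower, where 41.1% of genes were called, 27.4% higher and 13.7% lower. The 3 lower calls were lost under the interstitial scaling, with Runx2 at -0.16 (adjusted p = 0.814), Gata4 at -0.24 (adjusted p = 0.615) and Gata6 at -0.28 (adjusted p = 0.589). Foxl2 (-0.14), Foxl2os (0.21), Irx3 (-0.20) and Wt1 (-0.27) were not called.

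The differences between these courses were tested as contrasts. The -/- against +/- difference was larger at P28 than at P3 for Foxl2 (7.33), Foxl2os (6.76), Irx3 (2.03), Gata4 (2.63) and Gata6 (1.48), 5 called higher where 17.8% of genes were, beside 23.1% lower (40.9% in all). The interstitial scaling ended 3 of these calls, with Irx3 at -0.12 (adjusted p = 1), Gata4 at 0.52 (adjusted p = 0.492) and Gata6 at -0.68 (adjusted p = 0.394). Runx2 (-0.95) and Gata1 (-1.03) were not called. For Wt1 it was -0.03 (adjusted p = 1) and for Runx1 0.19 (adjusted p = 0.88). Irx5 was at -4.44 (adjusted p = 0.0617), a value that was called when any of 4 single libraries was left out, with DESeq2, without the filter and under the interstitial scaling. Against the P7 cells, where age and tissue change together, the P28 difference was larger for Irx3 (3.82), Gata4 (2.23) and Gata6 (1.65), where 15.4% of genes were called higher and 23.9% lower (39.4% in all). Of these, Gata4 (0.97, adjusted p = 0.22) and Gata6 (0.33, adjusted p = 0.78) were not called under the interstitial scaling. Foxl2os (1.42), Runx1 (-0.22), Runx2 (adjusted p = 0.158), Irx5 (-4.36, adjusted p = 0.186), Gata1 (0.11) and Wt1 (-0.40) were not called. For Foxl2 it was 2.09 (adjusted p = 0.0868) and was called without any of 4 single libraries. The R111G/+ difference from +/- gonads was called as changed between P3 and P28 for 1 factor, Runx2 (-1.89, adjusted p = 0.0147, where 9.24% of genes were called lower, 4.15% higher and 13.4% in all). The other 8 factors lay between -1.19 and 0.86, and Gata4 passed the p threshold there with a change under 2-fold (0.95, adjusted p = 0.0265). The Runx2 call was lost without P28 +/- library 1 (-1.36, adjusted p = 0.101) or P3 +/- library 2 (-1.52, adjusted p = 0.054), without the filter (adjusted p = 0.0632) and under the interstitial scaling (adjusted p = 0.1).

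Levels between the genes are comparable per length only. Per kilobase of exon, the mean in P28 -/- gonads was 169 CPM for Gata4, 52.6 for Foxl2, 34.1 for Foxl2os, 18.9 for Wt1, 14.2 for Gata6, 8.50 for Gata1, 2.64 for Irx3, 0.478 for Runx1, 0.110 for Runx2 and 0.0814 for Irx5. In +/+ testes the highest were Gata4 (12.5), Wt1 (9.54), Gata1 (5.88) and Irx5 (4.36), and Foxl2 stood at 0.114 and Irx3 at 0.125. Gata1 was thus above Gata6 (2.88) in the P28 +/+ testis and below it in the P28 null gonad. In control P7 Sertoli cells Gata4 (126) and Wt1 (68.7) led, followed by Gata6 (14.1) and Gata1 (7.46).

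Relatives and partners of the factors were read from lists of genes that hold none of the 10. The shares of all genes called, against which the counts stand, were 26.1% higher and 40.5% lower for P28 -/- against +/+, 6.72% and 28.1% for P28 R111G/+ against +/-, and 2.56% and 2% for P7 cells. In P28 -/- against +/+ gonads 5 of 11 tested genes of the GATA family and its cofactors were called higher and 3 lower (median log2 change 0.70 against -0.31 for all genes), among them Ldb1 (2.32), an adaptor that links LIM and GATA complexes, Trps1 (2.76), a GATA-type repressor, and Gata2 (-1.91). For RUNX relatives and cofactors the counts were 5 higher and 1 lower of 11 (median 0.72), led by the corepressor Cbfa2t3 (4.23), the coactivator Wwtr1 (2.34) and the kinase Hipk2 (2.12). Among Iroquois and forkhead relatives 5 of 9 were higher and 2 lower (median 1.27), with Irx2 (-9.35) and Foxj1 (-7.18), the regulator of motile cilia, lower and Foxo1 (1.73) higher. Irx2, like Irx5, was lower in the P28 -/- gonads, which had the lowest germ cell marker sum of the P28 groups. The part of germ cell number in the Irx2 change was not tested. In R111G/+ against +/- gonads the same 3 lists had 2, 0 and 0 genes higher and 1, 1 and 3 lower, and Foxj1 (-2.81), Irx2 (-1.94), Gata2 (-1.65) and Runx3 (-1.45) were among those lower. In P7 cells Trps1 (1.21), the GATA cofactor Zfpm2 (1.16), Foxc1 (3.80) and Foxp2 (2.29) were called higher and none of the 3 lists had a gene lower.

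Genes of the female pathway were the fourth list. Of 19 tested in P28 -/- against +/+ gonads 15 were called higher and 1 lower (median 3.28), led by Nr5a2 (6.91), Kctd14 (4.38) and Inhba (5.19), where 26.1% of all genes were called higher and 40.5% lower. In P7 cells 2 of 17 were higher, Wnt4 (3.69) and Axin2 (1.22), where 2.56% of all genes were, and at P3 none of them was called between -/- and +/- gonads. Of the male pathway list, 7 of 16 genes were called lower and none higher in P7 cells (2% of all genes lower), and 5 of 17 lower and none higher in P3 -/- gonads (0.309% of all genes lower), Fshr (-1.55) among the latter. In P28 -/- against +/+ gonads 4 of 17 were higher and 5 lower (median -0.27).

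Transcripts on the opposite strand need care, although the counting used strand. Runx2os3, antisense inside Runx2 on chromosome 17, had 8.94 to 10.7 CPM in +/+ and 3.83 to 9.44 CPM in +/- testes, 0.284 to 0.756 CPM in R111G/+ gonads and no count in any -/- library. Runx2 therefore fell between +/+ and -/- gonads together with an antisense RNA that was at 0 in P3 gonads, where Runx2 itself had 0.940 to 4.07 CPM. Supt3, which overlaps Runx2 by 37646 bases on the other strand, had 3.90 to 5.21 CPM in +/+ and 0.889 to 2.64 CPM in -/- libraries. Irx3os, which overlaps Irx3 by 1653 bases, stayed at or below 0.329 CPM in every library.

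The genes around Foxl2 were read against the shares of all genes called, 26.1% higher and 40.5% lower at P28 and 4.56% in either direction at P7. Of 37 genes within 500 kb, 15 were tested in P28 -/- against +/+ gonads, 1 of which was called higher (Mras, 1.80) and 7 lower, among them Faiml (-10.14), Cep70 (-1.87) and Pik3cb (-1.14). In P7 cells 9 were tested and Esyt3 (-1.45) was the 1 gene called. Around Irx3 and Irx5, 11 of 35 genes were tested at P28, with Mmp2 (3.78) and Lpcat2 (1.74) higher and 5 lower, including Crnde (-5.98), which lies next to Irx5, and Rpgrip1l (-1.81).

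Chromatin contacts of P7 null Sertoli cells were available as a list of 4291 interactions called from Hi-C at 10 kb bins over 2 replicates, with no score, so that no contact strength can be given. An anchor lay in or within 10 kb of 5 of the 10 genes, Gata4 with 2 interactions and Gata6, Irx3, Irx5 and Runx1 with 1 each, where 26.9% of 21897 protein-coding genes had one. The interaction of Irx3 and that of Irx5 was one and the same. Its anchors, on chromosome 8 from 91800001 to 91810000 and from 92350001 to 92360000, were 550 kb apart and each held the annotated start of one gene. In the P7 RNA libraries Irx5 had 0 to 2 counts and Irx3 2 to 9. The Runx1 anchor, on chromosome 16 from 92690001 to 92700000, held the start of the shorter Runx1 transcript and met a bin 130 kb away. The Gata4 anchor lay 71.7 kb from the Gata4 start and met bins at 120 and 180 kb, the latter near Blk. Foxl2, Foxl2os, Runx2, Gata1 and Wt1 had none in this list, and contacts of control cells were not analysed here.

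Across all 30 libraries the log2 levels of Foxl2 and Foxl2os had a Pearson correlation of 0.974, those of Gata4 and Gata6 0.956, and those of Irx5 and Gata4 -0.946. These values describe how the groups of different age, tissue and germ cell content line up and carry no test. By the same measure the genes most like Foxl2 among 12531 were Scarb1 (0.938), a lipoprotein receptor, Adgrg6 (0.895), Tgfbr1 (0.894), Tnfrsf19 (0.881) and Tmem25 (0.877), and 4 of the 5 most like Foxl2os were among them, with Lrrc8e (0.871) the fifth. Irx3 was closest to Nr5a2 (0.892), the nuclear receptor LRH1, then Camk2g (0.869), Mboat1, Elovl6 and Phyhip. Irx5 was closest to Ndufaf3 (0.985), Adam26a (0.982), Phf8-ps, Tkfc and Spam1, of which Spam1 encodes a membrane hyaluronidase of sperm. Gata4 (Bcan, Zfp467, Capn5, St3gal2 and Obsl1, 0.982 to 0.987) and Gata6 (Celsr1, Inhbb, Socs2, St3gal2 and Bcan, 0.966 to 0.972) shared Bcan and St3gal2. Wt1 was closest to Pard6b (0.987), Gas7, Mafk, Sdc4 and Fzd5, and Gata1 to Tigar (0.933), Slc7a4, Samd8, Btnl10 and Aagab. Runx1 was closest to Csf1 (0.869), the growth factor of macrophages, and to Abca1, Pon3, Cd47 and Errfi1. For Runx2 the likeness was weaker, with Zbtb25 (0.754), Plk1, Btbd7, Spast and Trim28, of which 2 of 5 were found again with library size as the scaling.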

How the data were processed

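Messenger RNA of 30 libraries was measured in gonads and in purified Sertoli cells. The authors trimmed reads with Trim Galore 0.6.0 and cutadapt 1.18, aligned them with STAR 2.7.2a to mm10 (GRCm38) and deposited strand-specific counts per GENCODE gene made with Rsubread, not normalized. The Hi-C list deposited by the authors holds anchor positions of interactions called in 10 kb bins after HiC-Pro mapping, for 2 replicates together and with no score. ChIP-seq data of the series were not analysed here.

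Counts were fitted with edgeR 4.0.16 (quasi-likelihood F test, filterByExpr, TMM scaling, R 4.3.3), in 1 fit for each age and tissue, and in 1 fit of all 30 libraries for contrasts across ages. P-values were adjusted by Benjamini-Hochberg over all genes of a fit, and standard errors were calculated back from the fold change and its F statistic. CPM came from the fit of all libraries. Ratios within a library had 0.5 added to each count and were tested by exact two-sided permutation. Intervals of count ratios are exact, at 95%, and cover counting error only. Likeness was the Pearson correlation with genes of at least 5 CPM on average, for members of at least 1 CPM, and the 5 closest genes are named. Positions and lengths came from a GENCODE annotation that matched 99.5% of the 55401 gene identifiers. All 10 members are given in each comparison, by value, in a range or as not tested, and of each list of relatives and of female and male pathway genes up to 3 called genes with the smallest adjusted p. The members and lists were chosen with earlier results of these data known. The fitting steps were tested on simulated data. Alternatives were other scalings, DESeq2 1.42.0, no low-count filter, a replicate block, fits of 2 groups and leaving out each library.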

Additional observations from a re-analysis of the deposited data

Results flagged for a closer look

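For 9 results the difference between 2 effects was itself called (edgeR, contrast of 2 differences, all 30 libraries). Between P28 and P3, the log2 difference of Dmrt1 -/- from +/- gonads was larger at P28 by 7.332 for Foxl2 (SE 0.7504, adjusted p = 1.25e-08), by 6.759 for Foxl2os (SE 1.077, adjusted p = 1.02e-05), by 2.03 for Irx3 (SE 0.6691, adjusted p = 0.0133), by 2.626 for Gata4 (SE 0.3031, adjusted p = 8.58e-08) and by 1.483 for Gata6 (SE 0.3229, adjusted p = 0.000425). The R111G/+ difference from +/- gonads changed by -1.889 for Runx2 (SE 0.5367, adjusted p = 0.0147). Between P28 gonads and P7 Sertoli cells, where age and tissue cannot be told apart, the difference was larger in gonads by 3.822 for Irx3 (SE 0.7462, adjusted p = 0.000136), by 2.231 for Gata4 (SE 0.3018, adjusted p = 1.03e-06) and by 1.651 for Gata6 (SE 0.3237, adjusted p = 0.000142).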

How the results depend on the processing

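Of 312 alternatives to the counts of called factors and the ratios, 290 kept the direction of the ratio or a count close to the one reported, 18 moved the count and 4 reversed a ratio. Scaling by interstitial lists moved most: called factors were 2 instead of 5 for P28 R111G/+ against +/+, 3 instead of 6 for age in R111G/+ (without Runx2, Gata4 and Gata6), and 0 instead of 1 for the R111G/+ effect between ages, which was 2 with library size alone and 0 without the filter. In the 2-group fit of P3 R111G/+ against -/- 2 were called. From TMM to the interstitial scaling the sign turned in these cases, each called by 1 of the 2. For P28 -/- they were Runx1 (-1.193), Gata6 (-0.03523), Gata1 (-1.812) and Wt1 (-1.385) against +/+, and Runx1 (-1.008) and Wt1 (-1.385) against +/-. Others were Gata1 (-0.1629) for R111G/+ against +/+, and Gata6 (0.176) and Wt1 (1.169) for age in +/- gonads. For the null effect between ages they were Runx1 (-1.974), Irx3 (-0.1151) and Gata6 (-0.6767). Uncalled values turned too, as for Gata4 in R111G/+ against +/- (-0.07892). The lowest values over all alternatives there were -0.6957 for Gata6, -0.2619 for Gata1 and -0.692 for Wt1. Against +/+ they were -0.8901 for Gata6, -0.9208 for Irx3 and -0.6918 for Wt1. In P7 cells they were -0.2159 for Gata4, -0.7449 for Gata6 and -0.2854 for Wt1. All of these were above 0 by TMM. Under the interstitial scaling Gata4 was at 0.5172 (adjusted p = 0.492) for the null effect between P28 and P3. Between P28 and P7 it was at 0.9654 (adjusted p = 0.22), with Gata6 at 0.3293 (adjusted p = 0.78). Irx3 lost its call in the null effect between ages without the filter (1.974, adjusted p = 0.0572). With Gata4 as the reference, the ratio of Gata6 was -1.502 and that of Runx1 -2.684. The cause was not tested. Leaving out 1 library gave 2 to 4 called factors for P28 R111G/+ against +/-, 0 to 1 for P3 R111G/+ against -/-, 0 to 2 for the R111G/+ effect between ages, and a Runx1 to Wt1 ratio from -0.2586 to 0.35. Without the filter 44.6% of genes were called in P28 -/- against +/+, against 66.6% with it.

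Replicate numbers were not taken as pairs, since not every same-numbered pair correlated over 0.1: residuals of same-numbered libraries correlated between -0.394 and 0.355 at P28, -0.0371 and 0.505 at P7, and -0.287 and 0.241 at P3. At P7 2 of 3 such pairs were over 0.1 (median 0.225), against a median of -0.108 for differently numbered libraries. With the replicate block the number of called factors was the same in all 19 comparisons, such as 7 for P28 -/- against +/+ and 2 at P7.

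Foxl2, Foxl2os, Irx3 and Irx5 rest on few counts in the groups where they are low, so their folds are imprecise there, and small differences among those groups could not be seen at this depth.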
